A study of Mus musculus with 8 samples.

Results

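The genes described here were the Wnt ligands, their receptors, the R-spondins and Lgr receptors, the secreted Wnt antagonists and a few genes of Wnt secretion and Wnt7 reception. A row of the expression table was taken where its Entrez identifier carried the symbol of one of 55 listed genes, and all 55 were found among 25428 rows. They comprised 19 Wnt ligands, 15 receptors, 7 R-spondin or Lgr genes, 10 secreted antagonists and 4 genes of secretion or Wnt7 reception.

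Expression was measured on 8 Affymetrix MoGene-2_0-st arrays, 4 of Ctrl and 4 of Ctnnb1OE-EC, with liver sinusoidal endothelial cells (LSECs) that were taken from the liver with beads against the surface protein CD146. All mice were female C57BL/6J animals aged 2 months, and each sample held cells pooled from 2 mice, so the spread between samples was that between pools. Ctnnb1OE-EC mice carried Clec4g-iCre tg/wt and Ctnnb1(Ex3) fl/wt, an allele from which Cre removes an exon that marks β-catenin for degradation. The Ctrl samples were labelled wildtype, and whether they carried the driver or the floxed allele was not given in the sources used here. The driver was also active in heart endothelium, and the mutant mice had cardiac dysfunction, so the cells did not come from animals with a change in the liver alone.

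Wnt proteins are fitted with a lipid by Porcn, carried to the cell surface by Wls and bound by a Frizzled together with Lrp5 or Lrp6, after which β-catenin is spared from degradation and acts in the nucleus with TCF/LEF factors. R-spondins bind Lgr receptors and keep Frizzleds on the surface by taking away the ubiquitin ligases Znrf3 and Rnf43. Many Dkk, Sfrp and Wif proteins, though not all, act against the ligands or the co-receptors outside the cell. In mouse liver, endothelial cells near the central vein are known as a source of Wnt2, Wnt9b and Rspo3, which maintain the pericentral program of hepatocytes, and the stabilized β-catenin of the mutant acts below the ligands and receptors of the canonical branch.

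Promoter sequences are shown for Wnt2, the only member past the threshold below, for Fzd10 and Wnt9b, which had the next largest differences in mean among members with a sequence, and for the matches to the TCF/LEF core. RefSeq windows of assembly GRCm38.p6, from 250 bases before to 50 bases after a gene's start, were matched for 36 of the 55 members. The core ATCAAAG, read on both strands, lay in windows of 2 of these 36 genes (5.56%), and in windows of 4.29% of all 27025 genes with a window of that length. Those were Wnt5b and Wnt11, whose group means differed little (log2 difference -0.12 and -0.13). The stretches around the core, in capitals, are given 5′ to 3′ on the strand of the gene, from chr6:119449441-119449467 (minus strand) and chr7:98835051-98835077 (plus strand). In Wnt5b the core stands as its reverse complement.
Wnt5b: gtaagtctctCTTTGATctgctccctg
Wnt11: acgtgggcggATCAAAGcgacggtccg

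The 250 bases before the start of Wnt2 (chr6:18030446-18030695, minus strand), Fzd10 (chr5:128600856-128601105, plus strand) and Wnt9b (chr11:103749822-103750071, minus strand) held no ATCAAAG. In Wnt2 the capitals mark 2 copies of TTATC, the reverse complement of GATAA, which is a form of the core read by GATA factors. Other forms, such as the GATAG near the beginning of the Wnt2 sequence, were not marked. In Fzd10 and Wnt9b they mark 1 copy each of CAAAG or its reverse complement CTTTG, which is the end of the TCF/LEF core and so overlaps every match to it. These shorter motifs were picked after the sequences were read. GATAA stood in windows of 11.1% of the matched members and 28.4% of all genes, and CAAAG in 50% and 57.4%. GC content was 63.6% for Wnt2, 76.4% for Fzd10 and 72.0% for Wnt9b, against a median of 52.4% over all windows. A match of letters is a description of the window only.
Wnt2: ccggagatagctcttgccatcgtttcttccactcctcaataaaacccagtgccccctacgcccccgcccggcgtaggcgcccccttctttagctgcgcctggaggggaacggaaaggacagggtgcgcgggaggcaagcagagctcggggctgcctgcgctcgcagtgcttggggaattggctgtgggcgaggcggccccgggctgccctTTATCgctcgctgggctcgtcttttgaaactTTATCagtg
Fzd10: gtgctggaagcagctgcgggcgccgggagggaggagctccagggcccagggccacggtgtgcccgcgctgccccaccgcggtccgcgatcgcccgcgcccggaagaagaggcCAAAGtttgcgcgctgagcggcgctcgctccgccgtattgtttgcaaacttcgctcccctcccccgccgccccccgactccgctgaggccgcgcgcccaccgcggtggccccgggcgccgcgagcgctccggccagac
Wnt9b: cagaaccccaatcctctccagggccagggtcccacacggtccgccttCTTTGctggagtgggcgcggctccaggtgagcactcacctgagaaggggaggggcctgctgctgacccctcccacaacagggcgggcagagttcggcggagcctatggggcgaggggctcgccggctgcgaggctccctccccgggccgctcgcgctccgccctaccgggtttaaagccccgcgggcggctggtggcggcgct

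Values are log2 expression, and a difference is the Ctnnb1OE-EC mean minus the Ctrl mean on that scale, with p-values from limma adjusted by Benjamini-Hochberg over all 25428 rows. The 8 arrays shared a median of 4.20 after normalization, correlated at 0.975 to 0.992 with each other, and limma called 136 rows higher and 98 lower in the mutant (adjusted p under 0.05). A member whose mean lay below the array median in both groups was counted as dim, because a difference there may be understated. Of the 55 members, 30 lay above that median in at least 1 group and 25 were dim.

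Of all members, Wnt2 alone passed the threshold, and it was lower in Ctnnb1OE-EC. This was 1 of 55 members (1.82%), where 0.385% of all rows were called lower. No member was called higher (0 of 55), where 0.535% of all rows were. A one-way analysis of variance run here, the kind named in the study's methods, called 0 members in either direction and 20 of all rows (0.0787%). The study reported more genes than that as significant, so this run did not reproduce its analysis. None of the 55 members, Wnt2 included, was among the genes that the study listed as significant on its arrays. At an unadjusted limma p under 0.05, 7 members were lower (12.7%, against 6.02% of all rows) and 5 were higher (9.09%, against 5.49%). The analysis of variance gave 5 lower (9.09%, against 6.00% of all rows) and 5 higher (9.09%, against 4.87%). The median difference of the members was -0.11, with 35 means lower and 20 higher, beside a median of -0.01 over all rows. Of all 25428 rows, 13619 had lower means and 11809 higher.

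**Figure D1:**
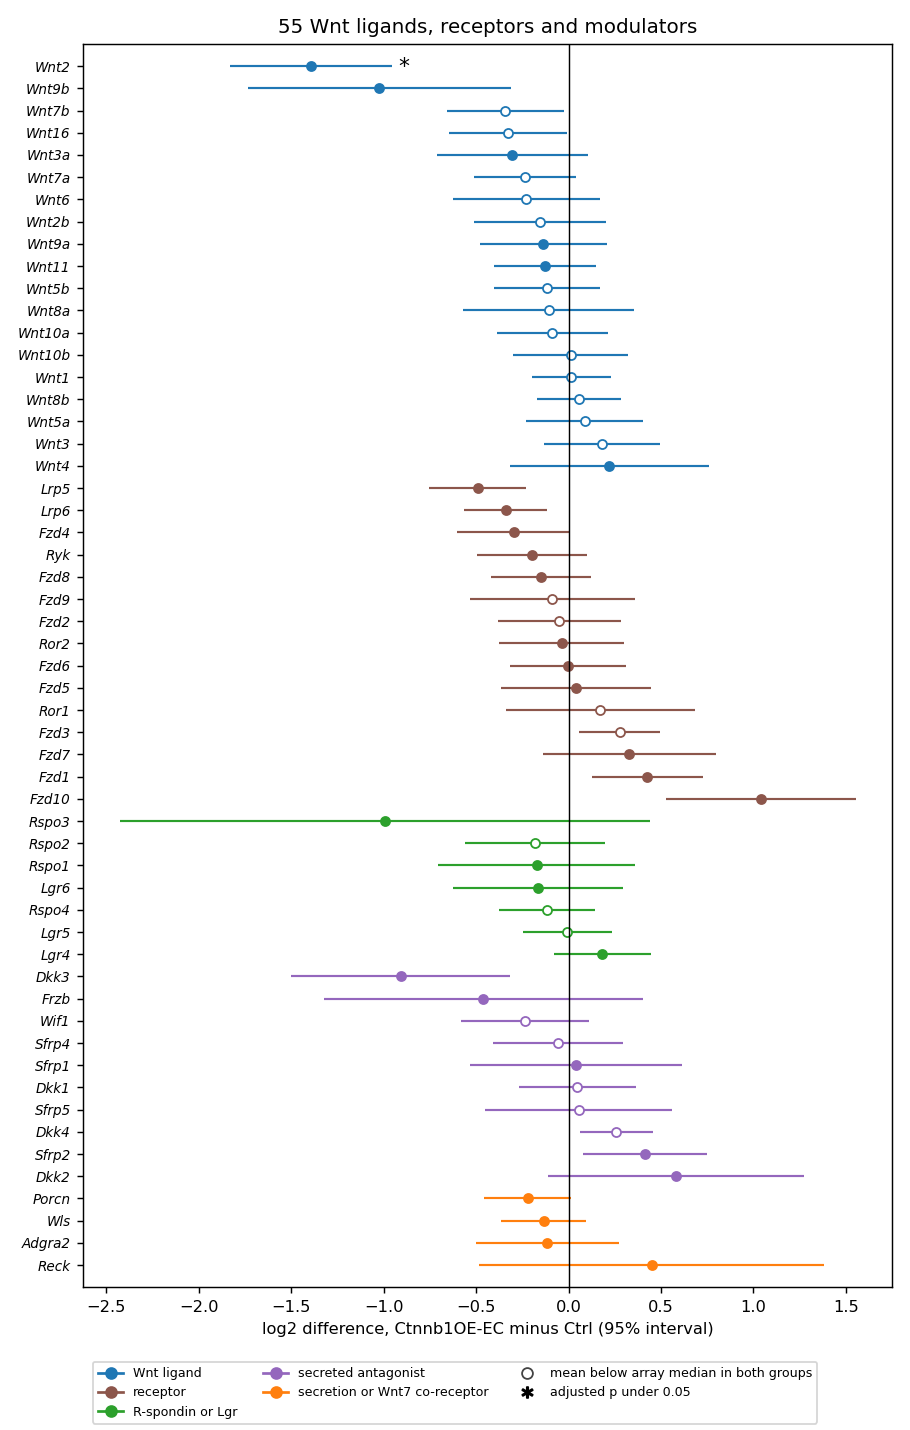
Log2 difference of each of the 55 members (Ctnnb1OE-EC mean minus Ctrl mean, x axis) with its 95% interval from limma, ordered within 5 classes by color. Open points are members with a mean below the array median in both groups, and the asterisk marks Wnt2, the only member with an adjusted p under 0.05.

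Among the Wnt ligands, Wnt2 fell and the remaining 18 ligands did not pass the test. Wnt2, a ligand made by liver endothelium, measured 9.90, 9.90, 10.28 and 10.07 in Ctrl replicates 1 to 4 and 8.99, 8.99, 8.37 and 8.23 in Ctnnb1OE-EC replicates 1 to 4. Every Ctnnb1OE-EC sample lay below every Ctrl sample, with 0.90 between the nearest samples, and replicates 3 and 4 were the lowest. The group means were 10.04 ± 0.18 and 8.65 ± 0.40 (SD, n = 4 each), a difference of -1.39 (SE 0.19, 95% interval -1.83 to -0.96, limma adjusted p = 0.0127), or 2.63-fold lower. In RNA of a bulk isolate, fewer cells that make Wnt2 and less Wnt2 RNA in each cell cannot be told apart. By in situ hybridization on liver sections, the study reported Wnt2 as significantly lower and Wnt9b as not significantly altered.

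The call for Wnt2 was not held by every setting. It was lost, among other settings, in the analysis of variance (adjusted p = 0.104), without Ctrl replicate 4 (0.0544), without Ctnnb1OE-EC replicate 3 (0.0503), and without Ctnnb1OE-EC replicates 3 and 4 together (0.0508), where the difference was -1.05. Calls over all rows fell as well, from 234 to 20, 92, 98 and 61 in that order. In Ctnnb1OE-EC replicates 3 and 4 an 8-gene adrenal cortex list was 2.56 and 1.78 above its Ctrl mean, with 0.14 as the highest value among the other 6 samples. A smooth muscle list of 6 genes was 1.58 and 1.87 above it there, and 1.80 in Ctrl replicate 2. Other lists were low in Ctnnb1OE-EC replicates 3 and 4, with 7 hepatocyte genes at -1.72 and -1.03 from the Ctrl mean. The values of 6 pancreatic acinar genes were -2.525 and -1.965 there, with -2.522 to 2.367 in Ctrl. The part of these cells in the Wnt2 difference was not tested beyond leaving the samples out.

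Markers of the isolated cells were set beside these values. The mean level of 8 LSEC markers was 12.27 to 12.42 in Ctrl and 11.86 to 12.13 in Ctnnb1OE-EC, with 1 of 8 called, the hyaluronan receptor Lyve1, which was lower by a difference of -1.78 (limma adjusted p = 0.0178). Means of 6 pan-endothelial markers overlapped, at 11.30 to 11.54 and 11.40 to 11.57. Among them Mcam, which encodes the CD146 used for the isolation, differed by 0.65 with overlapping groups (limma adjusted p = 0.33). The others differed by -0.13 (Tek) to 0.10 (Tie1). A list of 8 central vein endothelial genes, to which Wnt2, Wnt9b and Rspo3 themselves belong, spanned 8.89 to 9.66 in Ctrl and 8.77 to 9.50 in Ctnnb1OE-EC. In it, Wnt2 was called lower and Selp, an adhesion receptor for leukocytes, was called higher (difference 3.07, limma adjusted p = 0.00359), while Kit (-0.71), Cdh13 (-0.79), Lhx6 (-0.21) and Thbd (-0.03) were not called. The part of cell composition in these differences was not tested.

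Wnt9b, the other Wnt ligand known from central vein endothelium, had the second largest difference among ligands. It measured 6.53, 7.39, 7.90 and 7.82 in Ctrl and 6.98, 5.96, 6.26 and 6.35 in Ctnnb1OE-EC, in the order of replicate numbers. Ctrl replicate 1 lay below Ctnnb1OE-EC replicate 1, and the other 3 Ctrl samples lay above all 4 Ctnnb1OE-EC samples. The difference of -1.02 (SE 0.32, 95% interval -1.73 to -0.31) did not pass the threshold (limma adjusted p = 0.238), also without Ctrl replicate 1 (difference -1.32, adjusted p = 0.0812).

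Wnt7b and Wnt16 were dim in both groups. Wnt7b, which with Wnt7a drives the blood-brain barrier program of mouse brain endothelium, read 3.74, 3.73, 3.69 and 3.95 in Ctrl and 3.82, 3.44, 3.21 and 3.28 in Ctnnb1OE-EC (difference -0.34, adjusted p = 0.395). For Wnt16 the values were 3.68, 3.59, 3.51 and 3.34 in Ctrl and 3.01, 3.56, 3.22 and 3.01 in Ctnnb1OE-EC (difference -0.33, adjusted p = 0.42). Both sets of values overlapped between the groups. The other 15 ligands had differences from -0.30 (Wnt3a) to 0.22 (Wnt4), none with an unadjusted p under 0.0865, and 11 of them were dim. Over all 19 ligands, 13 means were lower and 6 higher, with a median of -0.13, where 13619 of all 25428 rows had lower means.

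**Figure D2:**
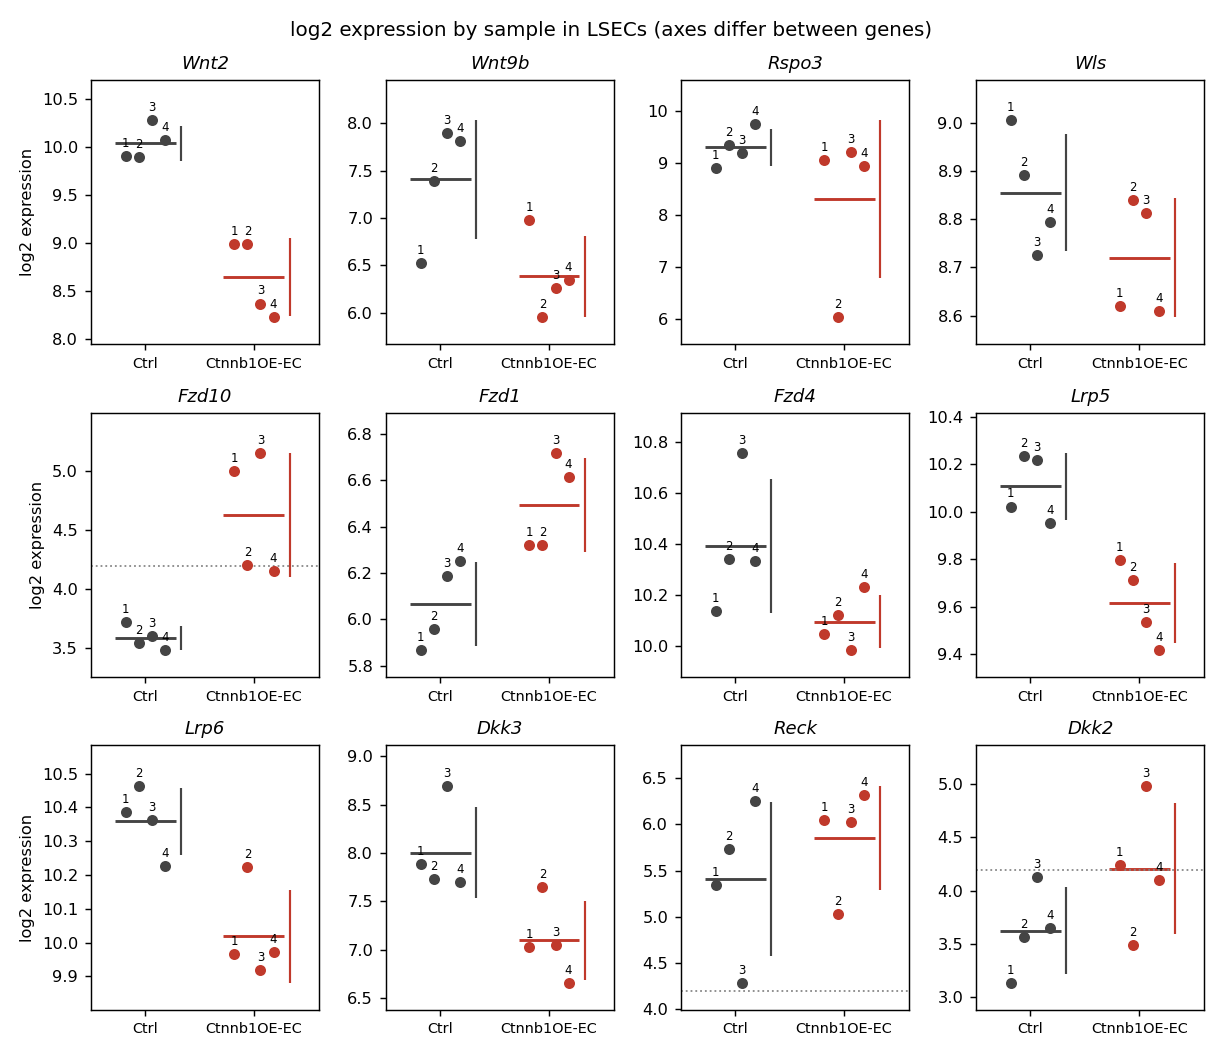
Log2 expression (y axis, a scale of its own for each gene) of 12 members in each sample, with Ctrl in grey and Ctnnb1OE-EC in red and points numbered by replicate. Horizontal bars are group means, vertical bars 1 SD to each side (n = 4) and the dotted line the array median of 4.20. Wnt2, Lrp5, Lrp6, Dkk3, Fzd1 and Fzd10 have groups that do not overlap, and Rspo3 has a single low sample, Ctnnb1OE-EC replicate 2.

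Counted without a test, the groups did not overlap for 7 members. Every Ctnnb1OE-EC sample lay below every Ctrl sample for Wnt2, Lrp5, Lrp6 and Dkk3 (7.27% of members, against 4.04% of all rows), and above every Ctrl sample for Fzd1, Fzd10 and Dkk4 (5.45%, against 3.55%). In the remaining 48 members the groups overlapped.

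Of the receptors, both co-receptors of the canonical pathway had lower values in Ctnnb1OE-EC, and neither was called. Lrp5 measured 10.02, 10.24, 10.22 and 9.95 in Ctrl and 9.79, 9.71, 9.54 and 9.42 in Ctnnb1OE-EC. All mutant samples were below all controls, and replicates 3 and 4, the samples with the adrenal cortex genes, were the lowest of them. The difference was -0.49 (SE 0.12, 95% interval -0.75 to -0.23, limma adjusted p = 0.115), and it was -0.35 without those 2 samples. Lrp6, its close relative, measured 10.38, 10.46, 10.36 and 10.23 in Ctrl and 9.96, 10.22, 9.92 and 9.97 in Ctnnb1OE-EC. Its groups were apart by only 0.0039, between Ctrl replicate 4 and Ctnnb1OE-EC replicate 2, with a difference of -0.34 (SE 0.10, limma adjusted p = 0.216).

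The 10 Frizzleds, the membrane receptors that bind Wnt proteins, had 5 higher and 5 lower means, with a median difference of 0.02. Fzd10 had the largest positive difference of all members. Its values were 3.72, 3.54, 3.60 and 3.48 in Ctrl, all below the array median, and 4.997, 4.20, 5.15 and 4.15 in Ctnnb1OE-EC, where replicates 1 and 3 were higher than replicates 2 and 4. The groups did not overlap, and the difference of 1.04 (SE 0.23, 95% interval 0.53 to 1.55) missed the threshold (limma adjusted p = 0.0913). With array weights it passed, at a difference of 1.11 and an adjusted p of 0.0426. Since the Ctrl values and Ctnnb1OE-EC replicate 4 lay below the array median, and Ctnnb1OE-EC replicate 2 was level with it, the size of the fold is uncertain.

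Fzd1 measured 5.87, 5.96, 6.19 and 6.25 in Ctrl and 6.32, 6.32, 6.72 and 6.61 in Ctnnb1OE-EC. The highest Ctrl sample was 0.066 below the lowest Ctnnb1OE-EC sample, and the difference of 0.43 (SE 0.13) did not pass (limma adjusted p = 0.243). Fzd3 was dim, at 2.90, 3.01, 3.12 and 2.84 in Ctrl and 3.32, 3.11, 3.32 and 3.23 in Ctnnb1OE-EC, and its groups overlapped by Ctrl replicate 3 alone (difference 0.28, adjusted p = 0.307). Fzd4, the receptor of Norrin and of Wnt7 signals in brain and retinal vessels, measured 10.14, 10.34, 10.76 and 10.33 in Ctrl and 10.05, 10.12, 9.99 and 10.23 in Ctnnb1OE-EC. Ctrl replicate 3 was the highest Fzd4 sample, the groups overlapped, and the difference of -0.30 (95% interval -0.60 to 0.01) was not called (limma adjusted p = 0.457). The remaining 9 receptors, which include Ryk, Ror1 and Ror2 of noncanonical Wnt signaling, differed by -0.20 (Ryk) to 0.33 (Fzd7), with 0.619 as their lowest adjusted p.

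In the R-spondin and Lgr class, 6 of 7 means were lower, with a median difference of -0.17. Of all 25428 rows, 13619 had lower means. Limma and the analysis of variance called 0 of the class, nor was any unadjusted limma p under 0.05. Over all rows, limma called 0.535% higher and 0.385% lower, with 5.49% and 6.02% at an unadjusted p under 0.05. Rspo3, the R-spondin of central vein endothelium, measured 8.91, 9.35, 9.19 and 9.77 in Ctrl and 9.05, 6.04, 9.22 and 8.94 in Ctnnb1OE-EC. Ctnnb1OE-EC replicate 2, at 6.04, stood 2.90 below the next sample of its group, and the other 3 mutant samples lay within 8.94 to 9.22, inside the Ctrl range of 8.91 to 9.77. The difference of -0.99 (SE 0.64, 95% interval -2.42 to 0.44, limma adjusted p = 0.624) rested on that sample, since without it the difference was -0.23 (adjusted p = 0.712).

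Lgr4, an R-spondin receptor, measured 5.63, 5.66, 5.87 and 5.48 in Ctrl and 5.78, 5.66, 6.02 and 5.91 in Ctnnb1OE-EC, with overlapping groups (difference 0.18, adjusted p = 0.623). Lgr5, a receptor of the same family and a marker of stem cells in the gut, was dim at 3.04, 2.88, 2.61 and 2.79 in Ctrl and 2.91, 2.78, 2.79 and 2.82 in Ctnnb1OE-EC. Its difference was -0.01 (adjusted p = 0.989), with an interval of -0.25 to 0.23. The other 4 members of the class lay between -0.18 (Rspo2) and -0.12 (Rspo4).

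**Figure D3:**
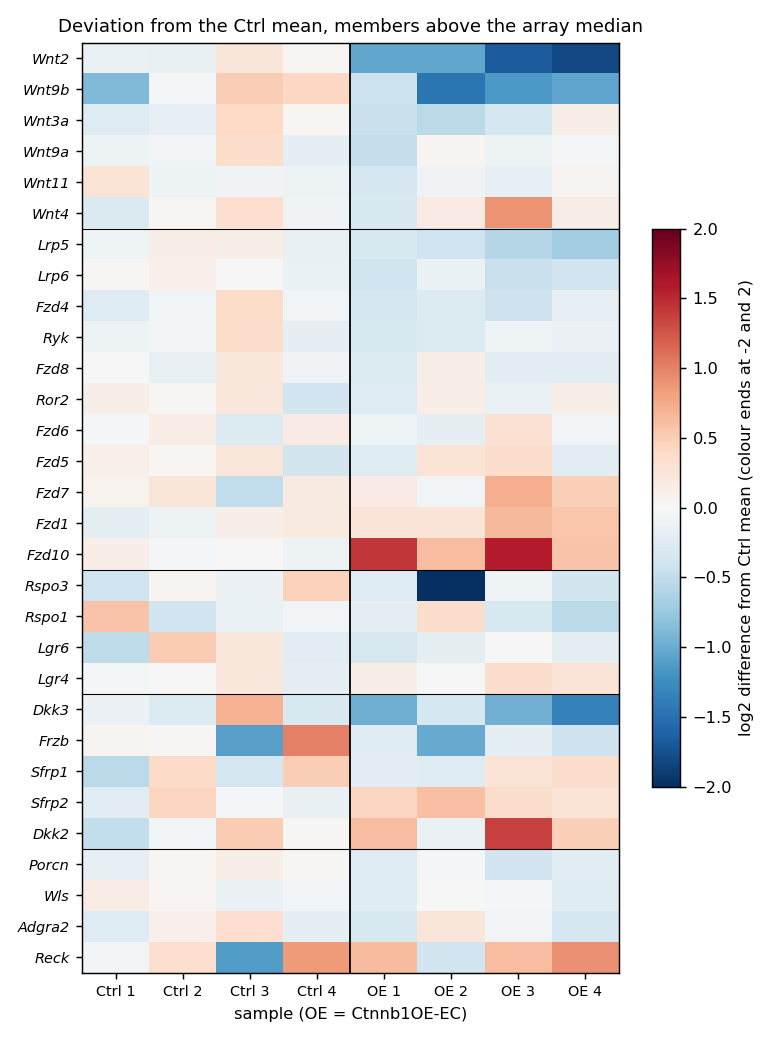
Deviation of each sample (x axis) from the Ctrl mean of the gene, in log2 units by color, for the 30 members with a mean above the array median in at least 1 group, in 5 classes parted by lines. Wnt2 is below the Ctrl mean in all 4 Ctnnb1OE-EC samples, and the color for Rspo3 reaches the end of the scale in Ctnnb1OE-EC replicate 2 alone.

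Among the secreted antagonists, 6 means were higher and 4 lower, with a median difference of 0.04. Limma and the analysis of variance called 0 of 10, where limma called 0.535% of all rows higher and 0.385% lower. At an unadjusted limma p under 0.05, 2 were higher and 1 was lower, where 5.49% of all rows were higher and 6.02% lower. Dkk3, a Dickkopf family member whose action on Wnt signals was not tested here, had the largest difference. It measured 7.88, 7.73, 8.70 and 7.70 in Ctrl and 7.03, 7.65, 7.04 and 6.66 in Ctnnb1OE-EC. The groups were apart by 0.054, Ctrl replicate 3 was the highest and Ctnnb1OE-EC replicate 4 the lowest sample, and the difference of -0.91 (SE 0.26, 95% interval -1.50 to -0.32) did not pass (limma adjusted p = 0.206).

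A further 3 antagonists had higher values in Ctnnb1OE-EC near or below the array median. Dkk2, a Dickkopf that binds Lrp5 and Lrp6, measured 3.14, 3.57, 4.13 and 3.65 in Ctrl and 4.24, 3.49, 4.99 and 4.10 in Ctnnb1OE-EC, with replicate 3 of the mutant highest and overlapping groups (difference 0.58, adjusted p = 0.528). Sfrp2, a secreted Frizzled-like protein that binds Wnt, measured 3.61, 4.26, 3.79 and 3.68 in Ctrl and 4.26, 4.43, 4.19 and 4.12 in Ctnnb1OE-EC. Ctrl replicate 2 lay within the mutant range (difference 0.41, adjusted p = 0.322). Dkk4, another Dickkopf, was dim at 3.51, 3.26, 3.46 and 3.40 in Ctrl and 3.67, 3.60, 3.72 and 3.67 in Ctnnb1OE-EC, and its groups were apart by 0.098 (difference 0.26, adjusted p = 0.285). The other 6 antagonists lay between -0.46 (Frzb) and 0.05 (Sfrp5).

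Of the genes of secretion and Wnt7 reception, all 4 had overlapping groups, as did 23498 of all 25428 rows. Limma and the analysis of variance called 0 of them, and no unadjusted limma p was under 0.05. Over all rows, limma called 0.535% higher and 0.385% lower, with 5.49% and 6.02% at an unadjusted p under 0.05. Porcn, the acyltransferase of Wnt proteins, measured 6.47, 6.69, 6.75 and 6.66 in Ctrl and 6.39, 6.60, 6.27 and 6.44 in Ctnnb1OE-EC (difference -0.22, 95% interval -0.46 to 0.01, adjusted p = 0.474). Wls, the Wnt carrier, measured 9.01, 8.89, 8.73 and 8.79 in Ctrl and 8.62, 8.84, 8.81 and 8.61 in Ctnnb1OE-EC (difference -0.13, 95% interval -0.36 to 0.09, adjusted p = 0.685). The interval of Wls leaves room for changes of up to 0.36 downward.

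Reck and Adgra2 (Gpr124) form the co-receptor by which brain endothelium reads Wnt7a and Wnt7b. Reck measured 5.35, 5.74, 4.29 and 6.26 in Ctrl and 6.05, 5.03, 6.03 and 6.32 in Ctnnb1OE-EC (difference 0.45, SE 0.41, adjusted p = 0.756). Its lowest sample was Ctrl replicate 3, and without that sample the difference was 0.075. Means of 8 stellate cell genes (-1.10 from the Ctrl mean), 6 fibroblast and mesothelium genes (-0.83) and 5 cholangiocyte genes (-0.60) were also lowest in Ctrl replicate 3, and 6 Kupffer cell genes were at -1.10 there. Hgf, a gene of the stellate list, was highest in it (10.27). The part of other cells in the Reck values was not tested. Adgra2 measured 8.72, 9.09, 9.32 and 8.80 in Ctrl and 8.66, 9.23, 8.93 and 8.65 in Ctnnb1OE-EC, with a difference of -0.11 (adjusted p = 0.87).

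The other genes of the pathway, 54 from a list written for this comparison, gave 8 called higher and 1 called lower. Of all rows, 0.535% were called higher and 0.385% lower. The median difference of the list was 0.10, and it was written with earlier results of these data known. Tcf7, a TCF/LEF transcription factor, measured 5.15, 5.32, 5.16 and 4.95 in Ctrl and 7.78, 7.01, 7.59 and 7.24 in Ctnnb1OE-EC, a difference of 2.26 (SE 0.17, limma adjusted p = 0.000547). Ptk7, a pseudokinase of planar polarity and Wnt reception, measured 3.98, 4.93, 4.76 and 4.44 in Ctrl and 6.22, 6.60, 6.79 and 5.94 in Ctnnb1OE-EC, a difference of 1.86 (SE 0.24, limma adjusted p = 0.00953). In both, every mutant sample lay above every control.

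Gpc1, a glypican that carries heparan sulfate at the cell surface, was the only gene of that list called lower. It measured 7.21, 7.80, 7.29 and 7.40 in Ctrl and 5.89, 6.11, 5.86 and 5.85 in Ctnnb1OE-EC, a difference of -1.50 (SE 0.14, limma adjusted p = 0.00171), and its groups did not overlap. Axin2, Apcdd1, Lypd6, Bambi, Lef1 and Myc were the other 6 called higher, by 1.01 (Bambi) to 3.03 (Lypd6). Of the 9 calls, 4 were feedback or membrane modulators, 1 a planar polarity partner, 1 a glypican and 3 nuclear factors. Znrf3, the ligase that R-spondins act on, differed by 0.44 (adjusted p = 0.238) and Rnf43 by 0.13 (adjusted p = 0.834). Ctnnb1 itself differed by 0.34 (adjusted p = 0.361) in a value over the whole gene, which does not check the removed exon. The analysis of variance run here called 2 of this list, with 20 of all rows. The study, with its own analysis, reported Axin2, Tcf7, Lypd6, Bambi and Gpc1 of the list as significant. Without Ctnnb1OE-EC replicates 3 and 4, limma called 5, with 61 of all rows. Whether members and the other pathway genes differ in their share of calls was not tested.

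**Figure D4:**
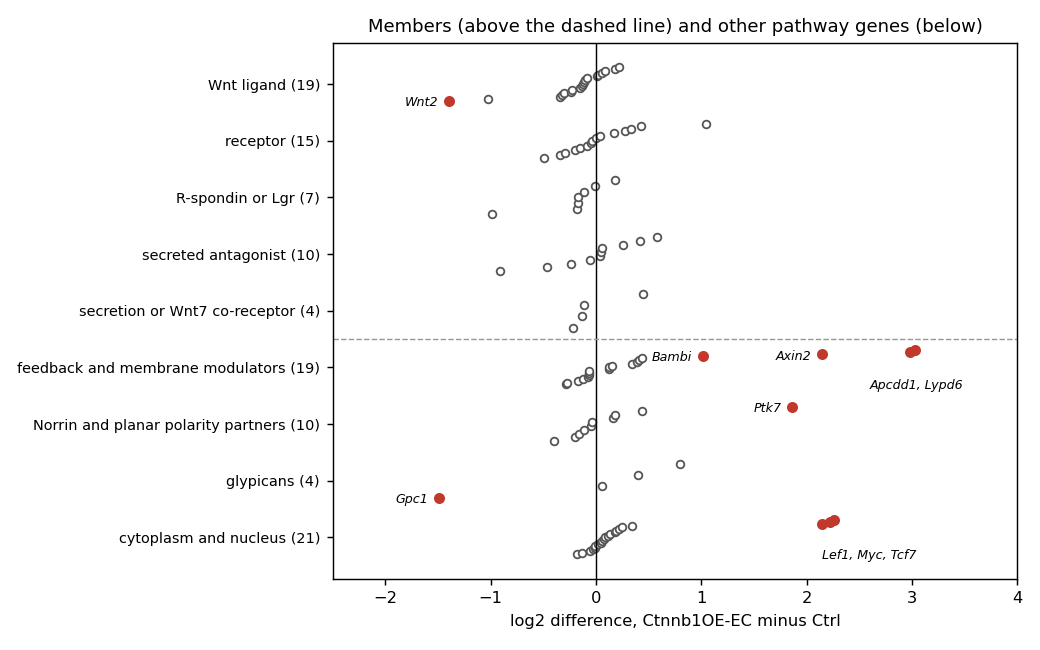
Log2 difference (Ctnnb1OE-EC minus Ctrl, x axis) of the 55 members by class, above the dashed line, and of 54 other pathway genes by group, below it, with the number of genes in brackets. Filled red points have a limma adjusted p under 0.05, and these are Wnt2 among the members and 9 of the other genes.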

How the data were processed

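RNA of LSECs was measured on 8 Affymetrix MoGene-2_0-st arrays, 4 per genotype. In the deposited table the authors gave log2 values, made with a Custom CDF of Entrez genes, the background correction of robust multiarray analysis (RMA) and quantile normalization. The table had 1 row per Entrez gene (25428 rows, 159 without a symbol here), no sample was left out, and no pair of samples was identical (0 pairs). Precision is limited by having 4 arrays in a group.

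Groups were taken from the genotype labels and compared with limma 3.58.1 in R 4.3.3 (group means, eBayes without trend, two-sided, Benjamini-Hochberg over all rows, threshold 0.05, 95% intervals). The script was tested on simulated data. Whether the pools come from separate isolations is not stated, so p-values measure the spread between these samples. Marker lists were averaged over their genes within each sample. Promoter windows came from RefSeq (GRCm38.p6), and the custom annotation names no genome build, so the probes were not placed on them.

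The members, the lists and the rule for genes described one by one were chosen with earlier results of these data known. That rule took members past the threshold, the 12 with the smallest p, the 2 largest differences above the array median in each class, and 13 genes known from liver and brain endothelium. Alternatives were an analysis of variance run here after the study's methods, and a trended and robust prior (statmod 1.5.0). The rest were array weights, other normalizations, filters, thresholds, the replicate number as a block, and samples left out.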

Additional observations from a re-analysis of the deposited data

Results flagged for a closer look

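In each member and group of 4 samples, the highest and the lowest sample were set against the nearest other one, and 5 of 110 groups held a sample that stood apart. Chance gives about 1 in 20 groups, so a count of this size is near that rate. Rspo3 in Ctnnb1OE-EC replicate 2 was 6.04, with 8.94 as the nearest sample of its group. The other 4 gaps were smaller. Wnt8a was 3.39 in Ctnnb1OE-EC replicate 1 (nearest 4.27), Wnt11 was 4.74 in Ctrl replicate 1 (nearest 4.41), Fzd8 was 6.47 in Ctnnb1OE-EC replicate 2 (nearest 6.14), and Fzd9 was 3.79 in Ctrl replicate 3 (nearest 3.32).

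Ctnnb1OE-EC replicate 2 was more than 2 log2 units below every other sample of its group in 8 of 25428 rows, which were listed after their values were seen. Gaps of this size were not particular to that sample, as the other 7 had 0 to 13 such rows below their group (13 in Ctrl replicate 3) and 0 to 43 above it (43 in Ctnnb1OE-EC replicate 1). Rspo3 had the widest gap of the 8. The others were Abcb1a, a drug efflux transporter of brain endothelium (5.62, beside 8.38, 8.98 and 8.60 in replicates 1, 3 and 4), Edn1, which encodes the vasoconstrictor endothelin (5.28, beside 7.53, 8.75 and 8.08), the arterial endothelial kinase Bmx (4.46, beside 6.72, 7.11 and 6.64), Lilr4b and the small nucleolar RNAs Snord111, Snord72 and Snord1b. Replicate 2 lay within the Ctrl values for Abcb1a (4.27, 5.16, 3.696 and 5.78) and Bmx (4.32, 5.14, 3.77 and 5.41), and below all Ctrl values for Rspo3 and Edn1 (5.99, 7.97, 5.69 and 7.79).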

How the results depend on the processing

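Under 20 alternatives the differences of the 21 genes described one by one kept their direction and their side of the threshold in 398 of 411 comparisons. That count is a weak check. The analysis of variance, the variance prior, the filters, the thresholds and the replicate block cannot change a difference. All of these genes but Wnt2 were uncalled to begin with, most of them far from the threshold. Wnt2 lost its call in 6, and Fzd10 gained one in 2. Lgr5, near 0, turned positive in 5 (0.064, 0.011, 0.0070 and 0.0060 with 1 sample left out, whose range was -0.081 to 0.064, and 0.016 without Ctnnb1OE-EC replicates 3 and 4). Members called were 0 in the analysis of variance (20 of all rows called, against 234), with the replicate block (86), at a threshold of 0.01 (68) and without Ctnnb1OE-EC replicates 3 and 4 together (61), and 2 (Wnt2 and Fzd10, so 1 called higher) with array weights (269) or a threshold of 0.1 (386). Leaving out 1 sample gave 0 or 1, and 0 without Ctrl replicate 4 or Ctnnb1OE-EC replicate 3. The adjusted p of Wnt2 was 0.0127, which misses a threshold of 0.01, 0.104 in the analysis of variance, 0.0873 with the replicate block, 0.0508 without Ctnnb1OE-EC replicates 3 and 4, and 0.0141 to 0.0544 without 1 sample. The other pathway genes called were 2 in the analysis of variance and 5 without those 2 samples, against 9. Members with separate groups were 7, then 7 to 11 without 1 sample (11 without Ctnnb1OE-EC replicate 2) and 13 without 2, as fewer samples separate more easily. The cause of the other changes was not tested. Fzd10 has no value when rows below the median row mean are dropped, which kept 26 members.

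Replicate numbers were not taken to pair the samples. Deviations of same-numbered samples correlated at 0.253, -0.177, 0.0275 and -0.153. The 25 dim members had means below the array median in both groups, where signal over background is weakest, so a missing call there is not a sign of a constant level.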
